A study of Mus musculus with 12 samples.

Results

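The 34 genes described here carry dietary fat and cholesterol through the intestinal epithelium or burn fatty acids, and they were taken by name from count tables of 23329 genes. They comprise 6 genes of fatty acid uptake and activation, 4 of sterol transport, 3 of triglyceride resynthesis, 7 of chylomicron assembly, 3 of lipid droplets, 3 regulators and 8 of fatty acid oxidation. All 34 had a row in the tables. RNA was sequenced from duodenum and spleen of wild type C57BL/6J mice, an inbred laboratory strain, aged 2 months. Mice had received AC H6, an antibody that activates lymphotoxin beta receptor (LTbR), or a control antibody of matching isotype. The dose was 100 ul per mouse at 1 mg/ml, and tissues date from 24 hours after it. The 4 groups were duodenum AC H6, duodenum isotype, spleen AC H6 and spleen isotype, with 3 libraries in each. Nothing in the labels ties each library of a group to its own mouse, so the p-values here speak only of the spread among the sequenced libraries, part of which may be technical. LTbR belongs to the tumour necrosis factor receptors and is known for its part in forming lymph nodes and Peyer's patches.

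Fat digested in the gut lumen reaches the enterocyte, the absorptive cell of the villus, as fatty acids and monoacylglycerol. The cell binds and activates the fatty acids, rebuilds triglyceride in the endoplasmic reticulum, packs it with apolipoproteins into chylomicrons and sends these to the lymph. Fatty acids that are not exported are oxidised in mitochondria and peroxisomes, a programme governed in many tissues by the nuclear receptor PPAR alpha.

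Library totals ran from 13874091 to 45847467 counts, and the lowest count among the 34 genes in a duodenum library was 499, for Cd36 in AC H6 2. Enterocyte markers summed to 22400 to 23500 CPM in duodenum AC H6 and 27300 to 28700 CPM in duodenum isotype libraries, against 90.5 to 102 CPM over the 6 spleen libraries, so the tissue labels and the markers were in accord. CPM are counts relative to library sizes scaled by trimmed mean of M values (TMM) within each tissue. Some libraries stood apart. The ribosomal precursor Rn45s took 7.56% of the counts in duodenum isotype 1. Amylase 2 genes, made by pancreatic acinar cells, took 8.64% in duodenum AC H6 3. Liver transcripts were high in spleen AC H6 3 (a summed hepatocyte list of 103 CPM, against 5.15 to 6.38 CPM in the other spleen libraries).

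In control animals most of these genes were higher in duodenum. Between duodenum isotype and spleen isotype libraries, 33 of the 34 genes were higher in duodenum and Cd36 was lower, with a median log2 difference of 5.27. The median was 8.30 over the absorption, droplet and regulator genes, which ran from -2.87 to 10.66. It was 1.96 over the 8 oxidation genes, which ran from 1.59 to 5.25. The background of that contrast was wide, with 42.2% of 16029 tested genes called higher in duodenum and 43.8% called lower (86% in all, median -0.05). The call is edgeR's quasi-likelihood test at a Benjamini-Hochberg adjusted p under 0.05, as in all comparisons here. Apoa4, an apolipoprotein of the chylomicron surface, had the highest level per exon length of the 34 genes in duodenum isotype libraries, at 3675 CPM per kb. Apoa1 followed at 3188, then Fabp2 at 2435 and Fabp1 at 2134 CPM per kb, and Cd36 came last at 7.16 CPM per kb. In spleen isotype libraries the order was led by Cd36 at 69.9 CPM per kb, a scavenger receptor that many immune and endothelial cells also carry. Pdk4 was the weakest of these contrasts at a log2 difference of 1.05 ± 0.40 (SE, adjusted p = 0.0362), with overlapping groups, and its call was lost without duodenum isotype 2 or 3 or spleen isotype 1 or 2 (adjusted p = 0.0581, 0.133, 0.113 and 0.112 by the same edgeR test). The 34 genes together held 2.5 to 2.82% of the counts in duodenum AC H6 and 2.55 to 2.86% in duodenum isotype libraries. In spleen they held 0.111 to 0.131% in AC H6 and 0.123 to 0.138% in isotype libraries.

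In the duodenum, 20 of the 34 genes were lower after AC H6 than after isotype, 3 were higher and 11 did not pass the test. Uptake, sterol transport, triglyceride resynthesis and oxidation genes made up most of the falls, and the 3 that rose were apolipoprotein genes that lie side by side on chromosome 9. Ppara had the lowest fold at 0.611 times its isotype level and Apoa4 the highest at 1.21 times. The change was widespread in this tissue, since 34.6% of 15667 tested genes were called, 16.1% lower and 18.5% higher. The median log2 fold change was -0.32 over the 34 genes and 0.01 over all tested genes. All 3 AC H6 libraries lay below all 3 isotype libraries for 21 of the 34 genes, as they did for 23.7% of all tested genes, and above them for 3 genes, as for 25.7%. The median coefficient of variation over the 34 genes was 4.72% in AC H6 and 6.4% in isotype libraries. In bulk tissue, fewer cells of a type and less RNA per cell cannot be told apart.

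**Figure D1:**
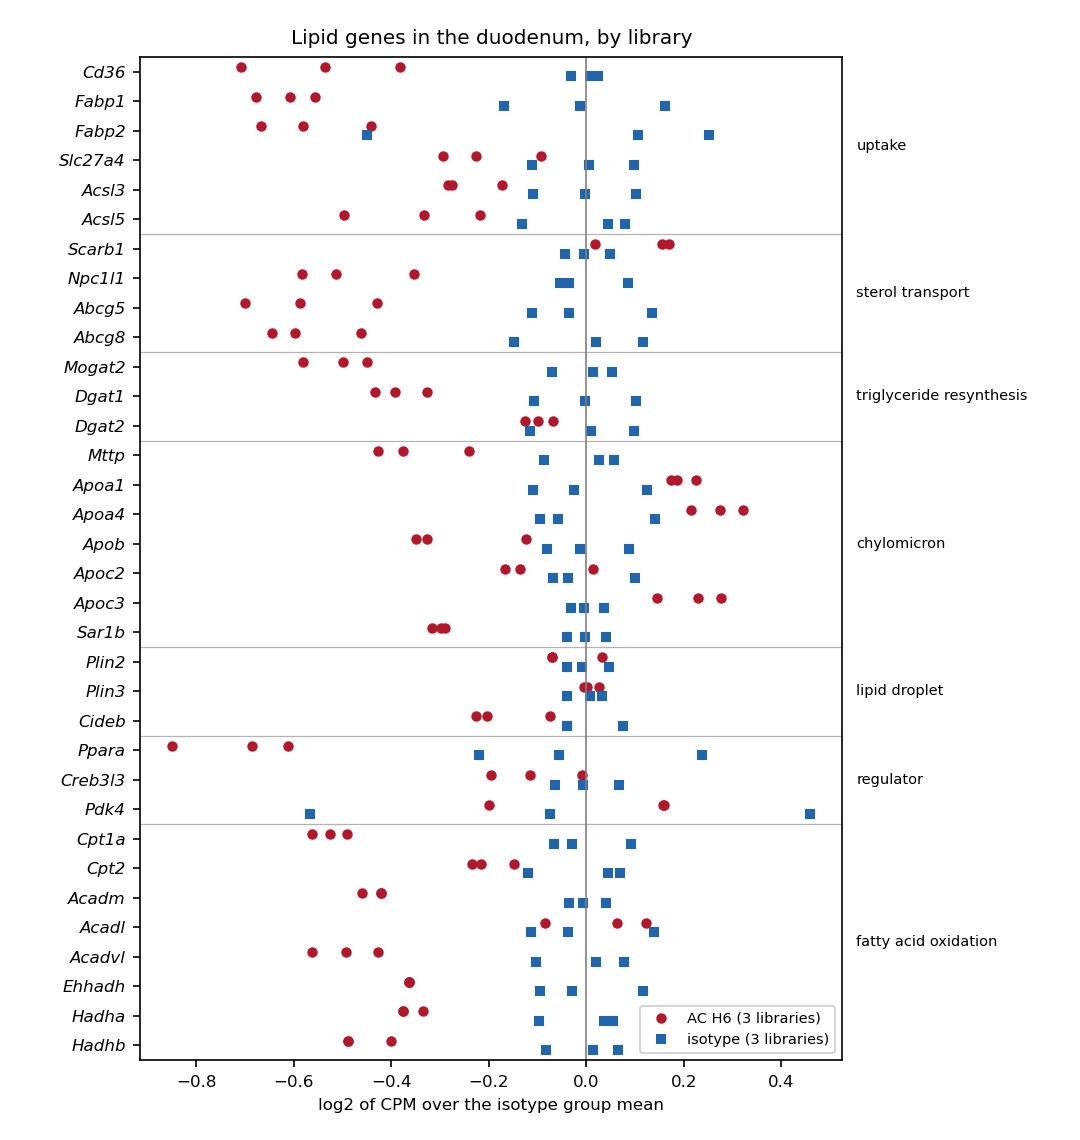
Level of each of the 34 genes in each duodenum library, as log2 of CPM over the mean of the isotype group, with genes grouped by role; red circles are the 3 AC H6 libraries and blue squares the 3 isotype libraries. Red lies left of blue without overlap for 21 genes and right of it for Apoa1, Apoa4 and Apoc3.

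Among the uptake genes, 5 of 6 fell. Fabp1, a cytosolic fatty acid binding protein of liver and proximal gut, had 774, 738 and 802 CPM in AC H6 and 1320, 1050 and 1170 CPM in isotype libraries. Every AC H6 value was below every isotype value, and the log2 fold change was -0.61 ± 0.08 (SE, adjusted p = 0.00107, edgeR). Cd36, the fatty acid translocase of the plasma membrane, had 19.7, 15.7 and 17.7 CPM in AC H6 and 25.8, 25.1 and 26.1 CPM in isotype libraries. The groups did not overlap, at a log2 fold change of -0.53 ± 0.08 (adjusted p = 0.00194, edgeR). Acsl5, which joins fatty acids to coenzyme A, had 1210, 1080 and 1310 CPM in AC H6 and 1610, 1390 and 1570 CPM in isotype libraries, a log2 fold change of -0.34 ± 0.08. Acsl3, of the same enzyme family, had 48.4, 45.1 and 44.8 CPM against 54.5, 50.6 and 58.6 CPM, a log2 fold change of -0.24 ± 0.06. Both synthetases were lower in every AC H6 library (adjusted p = 0.0139 and 0.0182, edgeR).

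Fabp2, the intestinal fatty acid binding protein, had 1730, 1570 and 1480 CPM in AC H6 and 2800, 1720 and 2530 CPM in isotype libraries. Isotype 2 lay within the AC H6 range, so the groups overlapped, and the log2 fold change of -0.56 ± 0.16 passed the test (adjusted p = 0.025, edgeR). That call was lost on leaving out isotype 1 (-0.41, adjusted p = 0.0721 by edgeR), isotype 3 (-0.51, 0.0771), AC H6 2 (-0.55, 0.0748) or AC H6 3 (-0.51, 0.103). The Acsl3 call was likewise lost on leaving out AC H6 2 (-0.23, 0.0644) or AC H6 3 (-0.22, 0.0794). Slc27a4, an acyl-CoA synthetase and fatty acid transporter, had 418, 364 and 381 CPM in AC H6 and 477, 413 and 448 CPM in isotype libraries and did not pass the test (-0.20 ± 0.08, adjusted p = 0.0711, edgeR). It passed with DESeq2 (adjusted p = 0.0276), with the replicate number as a block (0.0267, edgeR), in 1 fit of all 12 libraries (0.0223, edgeR) and without isotype 2 (-0.25, adjusted p = 0.0432, edgeR).

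The DNA upstream of Fabp1 is shown because it was, with Ppara, among the largest falls of the 34 genes and because it holds a nuclear receptor core motif. It is the stretch before the GENCODE start of the gene in the RefSeq promoter window, on GRCm38.p6, chr6:71199629-71199826, plus strand, with capitals at the match to AGGTCA, here on the opposite strand.
Fabp1: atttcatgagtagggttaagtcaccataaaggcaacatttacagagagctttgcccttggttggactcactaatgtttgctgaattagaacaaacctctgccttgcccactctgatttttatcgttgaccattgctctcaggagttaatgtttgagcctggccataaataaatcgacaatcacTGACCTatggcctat

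Of the 4 sterol transport genes, 3 fell. Npc1l1, the transporter that takes up cholesterol from the lumen, had 338, 378 and 322 CPM in AC H6 and 512, 471 and 465 CPM in isotype libraries. Its groups did not overlap, at a log2 fold change of -0.48 ± 0.07 (adjusted p = 0.00205, edgeR). Abcg5 and Abcg8 encode the subunits of a pump that returns sterols to the lumen. Abcg5 had 134, 111 and 120 CPM in AC H6 and 176, 198 and 167 CPM in isotype libraries. Abcg8 had 91.7, 80.8 and 83.5 CPM in AC H6 and 128, 137 and 114 CPM in isotype libraries. Both had a log2 fold change of -0.57 ± 0.09 (adjusted p = 0.00282 and 0.00198, edgeR), so the genes for entry and for return of sterols were lower together. Scarb1, a lipoprotein receptor that also takes up sterols, had 208, 210 and 189 CPM in AC H6 and 193, 186 and 181 CPM in isotype libraries, with overlapping groups (0.11 ± 0.07, adjusted p = 0.226, edgeR). It passed the test as higher without AC H6 3 (0.16, adjusted p = 0.0449, edgeR).

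Abcg5 (chromosome 17, 84658234 to 84683011, minus strand) and Abcg8 (84676302 to 84700333, plus strand) are transcribed away from each other from RefSeq starts 109 bases apart. Their GENCODE M21 exons share 82 bases on opposite strands, and the library kit does not mark strand, so a small share of their reads cannot be assigned. The sequence between their RefSeq starts, which lies inside the GENCODE span of Abcg8, is shown because both genes fell by the same amount. The Npc1l1 window is shown because it holds the core motif, in capitals on the opposite strand. The builds are GRCm38.p6, the first at chr17:84683012-84683120, plus strand, and the second at chr11:6230246-6230495, minus strand.
Between Abcg5 and Abcg8: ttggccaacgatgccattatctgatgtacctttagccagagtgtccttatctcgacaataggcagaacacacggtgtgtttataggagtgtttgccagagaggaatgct
Npc1l1: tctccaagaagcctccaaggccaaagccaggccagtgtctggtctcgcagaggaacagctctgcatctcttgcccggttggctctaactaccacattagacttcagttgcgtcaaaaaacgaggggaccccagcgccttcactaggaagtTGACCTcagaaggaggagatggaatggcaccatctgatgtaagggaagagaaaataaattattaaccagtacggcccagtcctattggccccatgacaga

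Of the 3 triglyceride resynthesis genes, 2 fell. Mogat2 adds a fatty acid to monoacylglycerol, the main route in the gut, and had 206, 188 and 199 CPM in AC H6 and 292, 284 and 268 CPM in isotype libraries. Its log2 fold change was -0.51 ± 0.06 (adjusted p = 7.54e-04, edgeR). Dgat1, which makes triglyceride from diacylglycerol, had 455, 435 and 423 CPM in AC H6 and 613, 530 and 570 CPM in isotype libraries (-0.38 ± 0.07, adjusted p = 0.00345, edgeR). Neither gene's groups overlapped. Dgat2 catalyses the same last step with an unrelated protein and did not pass the test, with 608, 621 and 597 CPM in AC H6 and 601, 697 and 655 CPM in isotype libraries (-0.10 ± 0.06, adjusted p = 0.275, edgeR).

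The 7 chylomicron genes split, with 3 lower, 3 higher and Apoc2 not called. Mttp, the transfer protein that loads lipid onto apolipoprotein B, had 1710, 1650 and 1880 CPM in AC H6 and 2310, 2090 and 2260 CPM in isotype libraries (-0.35 ± 0.06, adjusted p = 0.00418, edgeR). Apob, the structural apolipoprotein of the particle, had 1930, 1900 and 2220 CPM in AC H6 and 2400, 2290 and 2570 CPM in isotype libraries (-0.26 ± 0.07, adjusted p = 0.0237, edgeR). Sar1b, the small GTPase of the vesicles that carry chylomicrons out of the endoplasmic reticulum, had 158, 159 and 156 CPM against 200, 189 and 194 CPM (-0.30 ± 0.06, adjusted p = 0.00548, edgeR). None of these assembly genes had overlapping groups. The Apob call was lost without isotype 3 (-0.21, adjusted p = 0.0734 by edgeR), AC H6 1 (-0.23, 0.0854), AC H6 2 (-0.22, 0.079) or AC H6 3 (-0.33, 0.0668).

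Apoa4 rose, with 8340, 8070 and 7750 CPM in AC H6 and 6410, 6250 and 7360 CPM in isotype libraries (log2 fold change 0.27 ± 0.06, adjusted p = 0.012, edgeR). Apoa1, the main protein of high density lipoprotein and also a chylomicron protein, had 4600, 4480 and 4440 CPM in AC H6 and 3650, 4290 and 3870 CPM in isotype libraries (0.19 ± 0.06, adjusted p = 0.0371). Apoc3, an inhibitor of lipoprotein lipase, had 255, 233 and 247 CPM in AC H6 and 216, 206 and 210 CPM in isotype libraries (0.22 ± 0.06, adjusted p = 0.0254). In each gene all AC H6 libraries exceeded all isotype libraries. These rises were small, and their calls depended on single libraries. With any 1 library left out, the log2 fold change of Apoa1 ran from 0.14 to 0.27. That of Apoa4 ran from 0.23 to 0.35 and that of Apoc3 from 0.19 to 0.25. The Apoa1 call was lost without isotype 1 (0.14, adjusted p = 0.0719 by edgeR), isotype 3 (0.18, 0.0932), AC H6 1 (0.18, 0.113), AC H6 2 (0.20, 0.0778) or AC H6 3 (0.20, 0.322). The Apoa4 call was lost without AC H6 3 (0.30, 0.221), and the Apoc3 call without isotype 2 (0.21, 0.0622), isotype 3 (0.21, 0.0769) or AC H6 1 (0.19, 0.0952). Of the 3 genes, Apoa4 lost its call to the fewest libraries. In 1 fit of all 12 libraries none of the 3 passed (adjusted p = 0.651, 0.0946 and 0.656 for Apoa1, Apoa4 and Apoc3). Apoa1 also missed the threshold under a stricter filter on low counts (0.0562) and with a pancreatic acinar score as a covariate (0.122). Apoc2, the activator of lipoprotein lipase, had 628, 554 and 566 CPM in AC H6 and 667, 606 and 593 CPM in isotype libraries, with overlapping groups (-0.09 ± 0.07, adjusted p = 0.338, edgeR). Its exon bases number 813, and 646 of them overlap Gm44805, a predicted gene on the same strand.

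**Figure D2:**
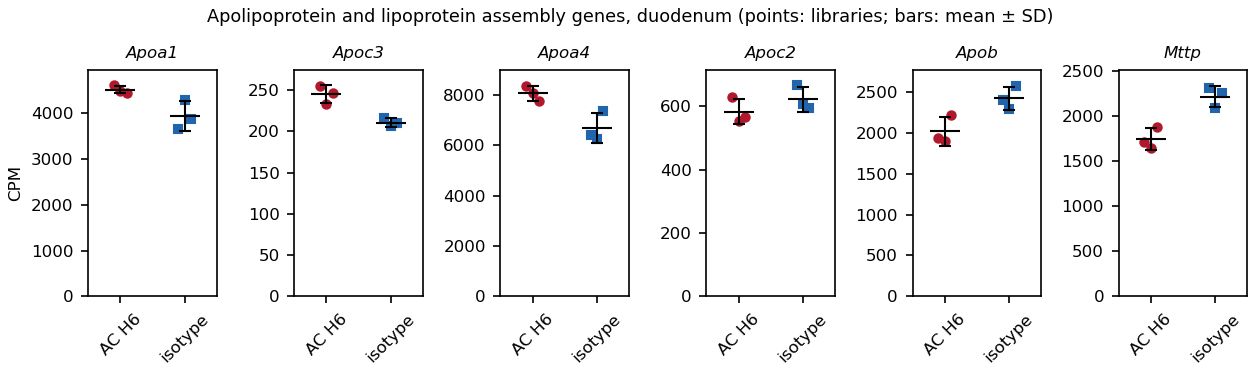
CPM of 6 chylomicron genes in each duodenum library (points), with the mean and SD of 3 libraries, AC H6 in red and isotype in blue. Apoa1, Apoc3 and Apoa4 are higher in every AC H6 library and Apob and Mttp lower, while Apoc2 overlaps; the axes start at 0 and differ between panels.

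The 3 apolipoprotein genes that rose lie within 14880 bases of chromosome 9 (GRCm38, GENCODE M21). Apoa1 spans 46228580 to 46230466 on the plus strand, Apoc3 spans 46232933 to 46235636 on the minus strand, and Apoa4 spans 46240696 to 46243459 on the plus strand. The gaps between them are 2466 and 5059 bases. Genes on either side, chosen after the values were seen, did not pass the test. Sik3, a kinase gene upstream of Apoa1, averaged 47.1 ± 2.47 CPM in AC H6 and 41 ± 4.58 CPM in isotype libraries (SD, n = 3 each, 0.20 ± 0.08 in log2, adjusted p = 0.0924 by edgeR). Bud13 averaged 11 ± 0.439 CPM in AC H6 and 9.95 ± 0.615 CPM in isotype libraries (0.14 ± 0.08, adjusted p = 0.2, edgeR). Apoa5, a liver apolipoprotein between them, was near 0 with 0.155 ± 0.0601 CPM in AC H6 and 0.282 ± 0.0911 CPM in isotype libraries and was not tested. Of the Apoa4 exon bases, 69.8% overlap predicted genes on the opposite strand, whose reads cannot be told apart from its own. The upstream DNA of Apoa1 (GRCm38.p6, chr9:46228380-46228579, plus strand) and of Apoa4 (chr9:46240594-46240695, plus strand) is shown because these genes moved against most of the others. Neither window holds AGGTCA on either strand, and so neither has capitals.
Apoa1: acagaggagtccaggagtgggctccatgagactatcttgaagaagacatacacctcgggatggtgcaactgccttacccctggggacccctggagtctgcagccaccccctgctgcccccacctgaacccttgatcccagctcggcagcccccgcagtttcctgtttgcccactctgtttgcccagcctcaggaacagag
Apoa4: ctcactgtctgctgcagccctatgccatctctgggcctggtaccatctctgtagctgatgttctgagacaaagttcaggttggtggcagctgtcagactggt

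No lipid droplet gene passed the test. Plin2, a droplet coat protein, had 91.7, 85.4 and 85.4 CPM in AC H6 and 92.6, 89.1 and 87.2 CPM in isotype libraries (-0.04 ± 0.06, adjusted p = 0.686, edgeR). Plin3, another coat protein, had 248, 244 and 243 CPM against 237, 245 and 249 CPM (0.01 ± 0.06, adjusted p = 0.928). Cideb, which takes part in lipoprotein lipidation, had 280, 256 and 252 CPM in AC H6 and 311, 287 and 287 CPM in isotype libraries, without overlap (-0.17 ± 0.07, adjusted p = 0.0829, edgeR). It passed with DESeq2 (adjusted p = 0.0473). Of the Cideb exon bases, 76.3% overlap Nop9 on the opposite strand.

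Among the 3 regulators, Ppara fell and the others did not pass. Ppara, the fatty acid sensor that drives oxidation genes, had 66, 56 and 62.7 CPM in AC H6 and 86.6, 97.1 and 119 CPM in isotype libraries. Its log2 fold change of -0.71 ± 0.12 was the lowest of the 34 genes (adjusted p = 0.00263, edgeR) and stayed between -0.81 and -0.58 with any 1 library left out. Creb3l3, a membrane-bound transcription factor of liver and gut, had 370, 350 and 398 CPM in AC H6 and 399, 383 and 420 CPM in isotype libraries, which overlapped (-0.10 ± 0.07, adjusted p = 0.264, edgeR). Pdk4, the kinase that turns off pyruvate dehydrogenase when fat is burned, had 48.4, 48.5 and 37.8 CPM in AC H6 and 29.3, 41.2 and 59.7 CPM in isotype libraries. The isotype range enclosed the AC H6 range (0.04 ± 0.22, adjusted p = 0.898, edgeR).

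Fatty acid oxidation genes fell at 6 of 8 members, with a median log2 fold change of -0.40. Cpt1a, which admits long-chain fatty acids to mitochondria and limits their oxidation, had 207, 197 and 202 CPM in AC H6 and 285, 310 and 278 CPM in isotype libraries. Its log2 fold change was -0.53 ± 0.06 (adjusted p = 6.49e-04, edgeR), and with each library left out it lay between -0.56 and -0.47 and stayed called. Cpt2, the next enzyme of that shuttle, had 154, 145 and 147 CPM in AC H6 and 179, 176 and 157 CPM in isotype libraries, without overlap, and did not pass (-0.20 ± 0.07, adjusted p = 0.0642, edgeR). It passed with DESeq2 (0.0204), with limma-voom (0.0364) and without isotype 3 (-0.26, adjusted p = 0.041, edgeR).

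The dehydrogenases of the first step differed among themselves. Acadvl, for very long chains, had 179, 171 and 163 CPM in AC H6 and 244, 254 and 224 CPM in isotype libraries (-0.49 ± 0.07, adjusted p = 0.00153, edgeR). Acadm, for medium chains, had 111, 108 and 111 CPM in AC H6 and 153, 148 and 145 CPM in isotype libraries (-0.44 ± 0.06, adjusted p = 0.00126). Both were lower in every AC H6 library. Acadl, for long chains, had 166, 150 and 173 CPM in AC H6 and 175, 147 and 155 CPM in isotype libraries, and did not pass (0.04 ± 0.09, adjusted p = 0.748, edgeR). Acadvl shares 42.9% of its exon bases with Dvl2 on the opposite strand. Dvl2 averaged 7.78 ± 0.264 CPM in AC H6 and 7.77 ± 0.533 CPM in isotype libraries (SD, n = 3 each), far below Acadvl.

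Later steps fell as well. Ehhadh, the bifunctional enzyme of peroxisomes, had 180 CPM in each AC H6 library and 251, 227 and 217 CPM in isotype libraries (-0.36 ± 0.07, adjusted p = 0.00507, edgeR). Hadha and Hadhb encode the subunits of the mitochondrial trifunctional protein. Hadha had 289, 281 and 281 CPM in AC H6 and 379, 374 and 341 CPM in isotype libraries (-0.36 ± 0.06, adjusted p = 0.00277, edgeR). Hadhb had 186, 175 and 175 CPM in AC H6 and 248, 257 and 232 CPM in isotype libraries (-0.46 ± 0.07, adjusted p = 0.00139, edgeR). All 3 genes were lower in every AC H6 library. Hadha (chromosome 5, 30118304 to 30155162, minus strand) and Hadhb (30155248 to 30184593, plus strand) lie head to head, with RefSeq starts 272 bases apart. The bases between their GENCODE starts are shown because the pair fell together (GRCm38.p6, chr5:30155163-30155247, plus strand), and the Acadm window because it holds the core motif, in capitals on the opposite strand (chr3:153944644-153944893, minus strand).
Between Hadha and Hadhb: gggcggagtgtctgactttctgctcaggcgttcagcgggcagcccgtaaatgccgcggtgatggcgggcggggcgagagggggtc
Acadm: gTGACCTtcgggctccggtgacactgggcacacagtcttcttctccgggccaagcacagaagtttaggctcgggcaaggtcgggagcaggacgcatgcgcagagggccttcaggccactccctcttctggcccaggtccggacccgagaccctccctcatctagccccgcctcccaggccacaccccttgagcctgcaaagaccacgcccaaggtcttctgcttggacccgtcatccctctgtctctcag

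RefSeq promoter windows of 300 bases, 250 of them before the start, were found for 29 of the 34 genes. AGGTCA, the core motif bound by PPAR and other nuclear receptors, was present on either strand in 9 of the 29 genes (31%). Counted by window, it was in 9 of their 31 windows, against 16.3% of all 32851 windows. The 9 genes were Acadm, Acadvl, Apoc2, Cd36, Cpt1a, Creb3l3, Fabp1, Npc1l1 and Plin2. Of these, 6 fell in the duodenum, beside 20 of all 34 genes, and Apoc2, Creb3l3 and Plin2 did not pass the test. The windows shown for the motif, of Fabp1, Npc1l1 and Acadm, are all of genes that fell. The direct repeat of this motif with 1 base between the copies is bound by PPAR with its partner RXR. Its exact form was in none of the 29 and in 0.0396% of all windows. CAAAGTCCA, a site of the enterocyte factor HNF4A, was in none of the 29 and in 0.475% of all windows. These are exact matches of letters in a short window. Sites with a mismatch were not counted, so their absence from the 29 was not shown.

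Other genes of these pathways were listed by role. Of 38 listed absorption and triglyceride genes, 35 were tested in the duodenum, 10 fell, 4 rose and 21 did not pass, with a median log2 fold change of -0.08. The rises included exporters of cholesterol from cells, with Abcg1 at 1.17 ± 0.13 and Abca1 at 0.84 ± 0.14, and Apoe at 0.52 ± 0.07 (adjusted p = 3.97e-04, 0.0031 and 9.09e-04, edgeR). The remaining rise, named after its value was seen, was Soat1, a cholesterol esterifying enzyme, at 0.31 ± 0.08 (0.0222). Among the falls were Slc27a2, a fatty acid transporter, at -0.65 ± 0.10, and Lpin3, a phosphatidate phosphatase, at -0.38 ± 0.07 (adjusted p = 0.00219 and 0.00435, edgeR).

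A list of 35 other oxidation, ketone and PPAR alpha target genes held more falls than rises. Of the 33 tested, 19 fell, 1 rose and 13 did not pass, with a median log2 fold change of -0.30. Acot12, an acetyl-CoA hydrolase, was at -0.66 ± 0.05 (adjusted p = 9.13e-05, edgeR). Acaa2, a thiolase of the last step, was at -0.56 ± 0.07, and Decr1, a reductase for unsaturated chains, at -0.55 ± 0.07 (6.74e-04 and 7.18e-04). Hadh, a dehydrogenase of the mitochondrial cycle, was at -0.48 ± 0.06 and Slc25a20, the carnitine carrier between Cpt1a and Cpt2, at -0.44 ± 0.06 (8.97e-04 and 9.04e-04). The rise, named after its value was seen, was Vnn1, a pantetheinase, at 0.36 ± 0.08 (0.00906). Of 20 other regulators of lipid genes, 13 fell, none rose and 7 did not pass, with a median of -0.29. They included Pparg at -0.62 ± 0.09, Hnf4g at -0.58 ± 0.11, Klf5 at -0.40 ± 0.07, Gata6 at -0.30 ± 0.06, Hnf4a at -0.28 ± 0.06 and Ppargc1b at -0.55 ± 0.12 (adjusted p = 0.00111, 0.00402, 0.00404, 0.00741, 0.00799 and 0.00978, edgeR).

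In the duodenum, most called enterocyte markers moved with most of these genes, and crypt markers moved the other way. Of 15 enterocyte markers, 8 fell, 1 rose and 6 did not pass, with a median log2 fold change of -0.23. Their summed level was 22400 to 23500 CPM in AC H6 against 27300 to 28700 CPM in isotype libraries. Of 8 crypt stem and dividing cell markers, 7 rose, and their sum was 849 to 1070 CPM in AC H6 against 581 to 638 CPM in isotype libraries. Neither sum overlapped between the groups, and none of these markers was at 0. The 34 genes summed to 25300 to 26400 CPM in AC H6 and 26100 to 28200 CPM in isotype libraries, which overlapped, with the abundant Apoa4 and Apoa1 higher in AC H6. The oxidation genes summed to 1410 to 1470 CPM in AC H6 against 1750 to 1910 CPM in isotype libraries, and the uptake genes to 3820 to 4200 CPM against 4640 to 6290 CPM. With the mean log2 level of the enterocyte list as a covariate, 2 of the 23 calls were kept, Cpt1a (log2 fold change -0.65, adjusted p = 0.0245, edgeR) and Acadvl (-0.62, 0.0446), and 21 of the 23 genes had the same sign. The median log2 fold change of the 20 genes that fell was -0.40 with this covariate and -0.47 without it, and 7 of the 20 were at least as far below 0 with it, among them Abcg5 at -0.75, Ppara at -0.74, Abcg8 at -0.72 and Hadhb at -0.55 (adjusted p = 0.052, 0.131, 0.0546 and 0.0545, edgeR). Cd36 at -0.50, Mogat2 at -0.49 and Npc1l1 at -0.47 hardly moved, while Acsl5 at -0.05, Apob at -0.06, Mttp at -0.13 and Fabp2 at 0.02 came near 0. Treatment accounted for 73.6% of the variance of that enterocyte score. With a crypt score as the covariate, added after the data were seen, none of the 23 calls was kept and 18 had the same sign, and treatment accounted for 95.2% of the variance of that score. The median of the 20 falls was -0.39 there. Of these, 6 were at least as far below 0, among them Ppara at -0.91, Apob at -0.70, Cpt1a at -0.67 and Mttp at -0.54 (adjusted p = 0.565, 0.475, 0.455 and 0.558, edgeR). Another 10 were nearer 0, and 4 lay above 0. Those 4 were Fabp2 at 0.81, Acsl3 at 0.10, Dgat1 at 0.10 and Npc1l1 at 0.01 (adjusted p = 0.632, 0.92, 0.916 and 0.993, edgeR). Cell makeup and treatment therefore cannot be told apart in these libraries.

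**Figure D3:**
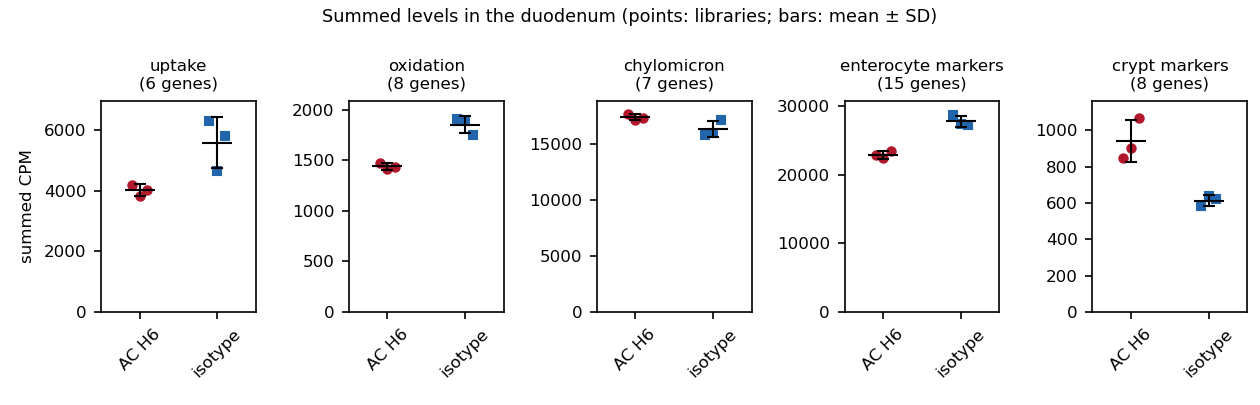
Summed CPM of the uptake, oxidation and chylomicron genes beside the summed enterocyte and crypt markers in each duodenum library (points), with the mean and SD of 3 libraries, AC H6 in red and isotype in blue. Uptake, oxidation and enterocyte sums are lower in every AC H6 library, and crypt markers, at 849 to 1070 CPM, are higher; the axes start at 0 and differ between panels.

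Markers of other cell types also differed in the duodenum samples. Macrophage markers summed to 450 to 470 CPM in AC H6 and 328 to 373 CPM in isotype libraries, with 7 of 8 tested genes higher. Neutrophil markers summed to 57.8 to 72.8 CPM in AC H6 and 29.1 to 35.1 CPM in isotype libraries, with 5 of 8 tested genes higher and 1 lower. Smooth muscle and fibroblast markers summed to 1700 to 1970 CPM in AC H6 and 1520 to 1570 CPM in isotype libraries (4 of 9 higher), endothelial markers to 271 to 290 CPM against 228 to 250 CPM (4 of 7 higher), and T cell markers to 29.2 to 31.2 CPM against 23.8 to 26.1 CPM (2 of 8 higher). None of these sums overlapped between the groups, and no gene of the last 3 lists was called lower. The smooth muscle and fibroblast list had a median log2 fold change of 0.00, with 5 of 9 genes below 0. Among all tested genes, 18.5% were called higher. The B cell list had no call among 7 tested genes. Macrophages make Cd36, Abca1, Abcg1 and Apoe too, and the part of these cells in their levels was not tested. Acinar markers ran from 56 to 33300 CPM in AC H6 and from 61.8 to 8320 CPM in isotype libraries, without a call among 10 genes, and 22 of the 23 member calls were kept with an acinar score as a covariate. Adipocyte markers summed to 147 to 165 CPM in AC H6 and 139 to 164 CPM in isotype libraries. With duodenum isotype 1 and AC H6 3 both left out, a fit added after the data were seen, 17 of the 23 calls were kept and all 23 had the same sign. The calls lost there were Acsl3, Acsl5, Apoa1, Apoa4, Apob and Fabp2.

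In the spleen, 3 of the 34 genes rose, none fell, 28 did not pass and Apoc3, Abcg5 and Abcg8 were too low to test. Of 15270 tested genes, 3.98% were called, 2.06% higher and 1.92% lower. At an unadjusted p under 0.05, 8 of the 31 tested genes differed, as did 27.9% of all tested genes. Dgat2 had 11.1, 11 and 11.5 CPM in AC H6 and 6.6, 6.67 and 6.1 CPM in isotype libraries. It was 1.73 times as high after AC H6, a log2 fold change of 0.79 ± 0.08 (adjusted p = 0.00975, edgeR). Scarb1 had 87.2, 84.3 and 89.4 CPM in AC H6 and 69.4, 69.9 and 65.3 CPM in isotype libraries (0.35 ± 0.06, adjusted p = 0.0271). Slc27a4 had 26.3, 27.9 and 28.3 CPM in AC H6 and 21.9, 22.6 and 22.9 CPM in isotype libraries (0.29 ± 0.06, adjusted p = 0.0431). Each gene was higher in every AC H6 library, and none of the 3 had passed the test in the duodenum. All 3 AC H6 libraries lay above the isotype libraries for 12 of the 31 tested genes, as for 15.9% of all tested genes, and below them for 1, as for 16.6%. The median log2 fold change was 0.20 over the 31 genes and 0.00 over all tested genes.

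Each of these spleen calls was lost on leaving out at least 1 library. The Dgat2 call was lost without isotype 1 (0.81, adjusted p = 0.0687 by edgeR) or AC H6 3 (0.78, 0.0586), with hardly any change in its size. The Scarb1 call was lost without isotype 1 (0.36, 0.105), isotype 2 (0.37, 0.069), isotype 3 (0.32, 0.0939), AC H6 1 (0.35, 0.0766) or AC H6 3 (0.33, 0.111). The Slc27a4 call was lost without any 1 of the 6 libraries (0.27 to 0.32, adjusted p from 0.0557 without AC H6 2 to 0.153 without AC H6 3). Of all tested genes 608 were called; the count was 14, 68 and 104 without isotype 1, 2 and 3, and 76, 1132 and 30 without AC H6 1, 2 and 3. Erythroid markers ran from 68300 to 154000 CPM in AC H6 and from 29300 to 85600 CPM in isotype libraries, and with an erythroid score as a covariate Dgat2 alone was kept. Macrophage markers summed to 2240 to 2400 CPM in AC H6 against 1780 to 1950 CPM in isotype libraries, with 5 of 10 higher. Neutrophil markers moved furthest of the immune lists, summing to 1600 to 2270 CPM in AC H6 against 550 to 831 CPM in isotype libraries, with 9 of 10 higher and a median log2 fold change of 1.30. T cell markers summed to 437 to 491 CPM in AC H6 against 556 to 634 CPM in isotype libraries (4 of 8 lower), and B cell markers to 2570 to 2930 CPM against 3160 to 3450 CPM (2 of 8 lower). The part of these cells in the 3 rises was not tested. Of the other listed genes, P4hb, the small subunit of the triglyceride transfer complex, rose by 0.27 ± 0.05 in log2 and Nr1h3, an oxysterol receptor, by 0.46 ± 0.06 (adjusted p = 0.0409 and 0.0164, edgeR).

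Spleen AC H6 3 also carried liver transcripts. Alb, the plasma albumin gene, had 1169 counts there, 25 in AC H6 1 and 0 in each of the other spleen libraries. Apoa1 had 5.96, 4.42 and 11.9 CPM in AC H6 and 4.62, 4.24 and 5.47 CPM in isotype libraries, Apob had 2.89, 3.2 and 7.6 CPM against 3.37, 2.78 and 3.45 CPM, and Apoc3 had 0.157, 0.306 and 1.66 CPM against 0.132, 0.22 and 0.119 CPM. In each, AC H6 3 was the highest of the 6 libraries. Without it the log2 fold change of Apoa1 was 0.12 in place of 0.60, that of Fabp1 0.15 in place of 0.46 and that of Apob -0.06 in place of 0.47, none of them called by edgeR.

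**Figure D4:**
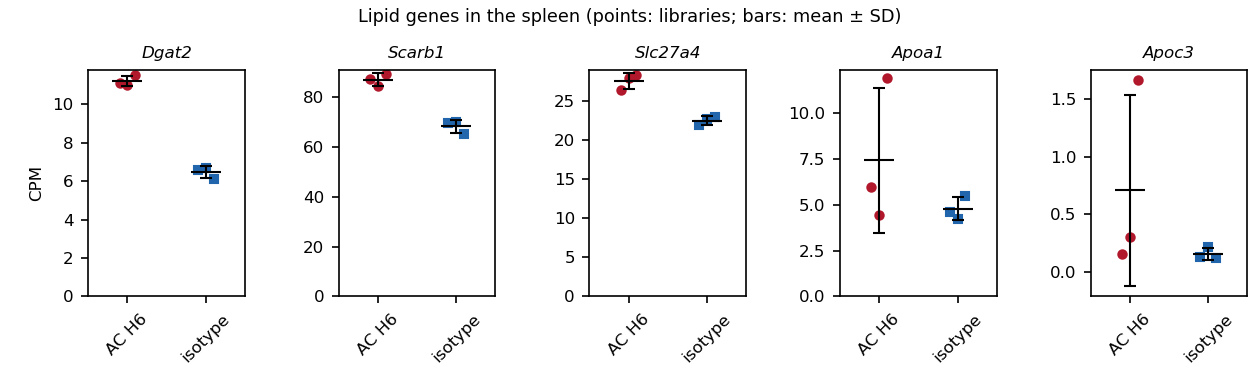
CPM of 5 lipid genes in each spleen library (points), with the mean and SD of 3 libraries, AC H6 in red and isotype in blue. Dgat2, Scarb1 and Slc27a4 are higher in every AC H6 library, while for Apoa1 and Apoc3 the highest point, at 11.9 and 1.66 CPM, is AC H6 3, the library with liver transcripts.

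The effect of AC H6 differed between the tissues for 20 of the 34 genes, all with the lower value in the duodenum. This interaction of tissue and treatment was called for 20% of 16655 tested genes, 9.13% in that direction, and its median was -0.50 over the 34 genes and -0.01 over all. Dgat2 had the smallest p, at -0.91 ± 0.09 in log2 (adjusted p = 5.49e-05, edgeR). Acadvl was at -0.62 ± 0.09 and Sar1b at -0.46 ± 0.07 (9.40e-04 and 9.46e-04). Mogat2 was at -1.18 ± 0.19, from a gene with 1.46 to 2.14 CPM in spleen AC H6 and 0.951 to 1.32 CPM in spleen isotype libraries. Of the 18 genes that fell in the duodenum and were tested in spleen, 14 had a spleen log2 fold change above 0 and 4 below. Cpt1a, Ehhadh, Acsl3, Apob, Abcg5 and Abcg8 fell in the duodenum and had no interaction call (adjusted p = 0.0956, 0.309, 0.358, 0.192, 0.529 and 0.0747). The rises of Apoa1, Apoa4 and Apoc3 had none either (0.438, 0.641 and 0.243). In spleen, 12 of the 34 genes averaged under 5 CPM in AC H6 and 13 in isotype libraries, where a log2 fold change rests on few counts. Whether such low spleen levels come from spleen cells was not tested. Of the 20 interaction calls, 11 were kept with any 1 of the 12 libraries left out. Among the other 9, Scarb1 stayed called in 1 of the 12 fits, Cd36 and Mttp in 3 each, Apoc2 in 4, and Cpt2, Fabp2 and Ppara in 5 each, with the same sign throughout. Without duodenum AC H6 2, the interaction was called for 13 of the 34 genes. Without spleen AC H6 3, the library with liver transcripts, 14 of the 20 calls were kept.

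**Figure D5:**
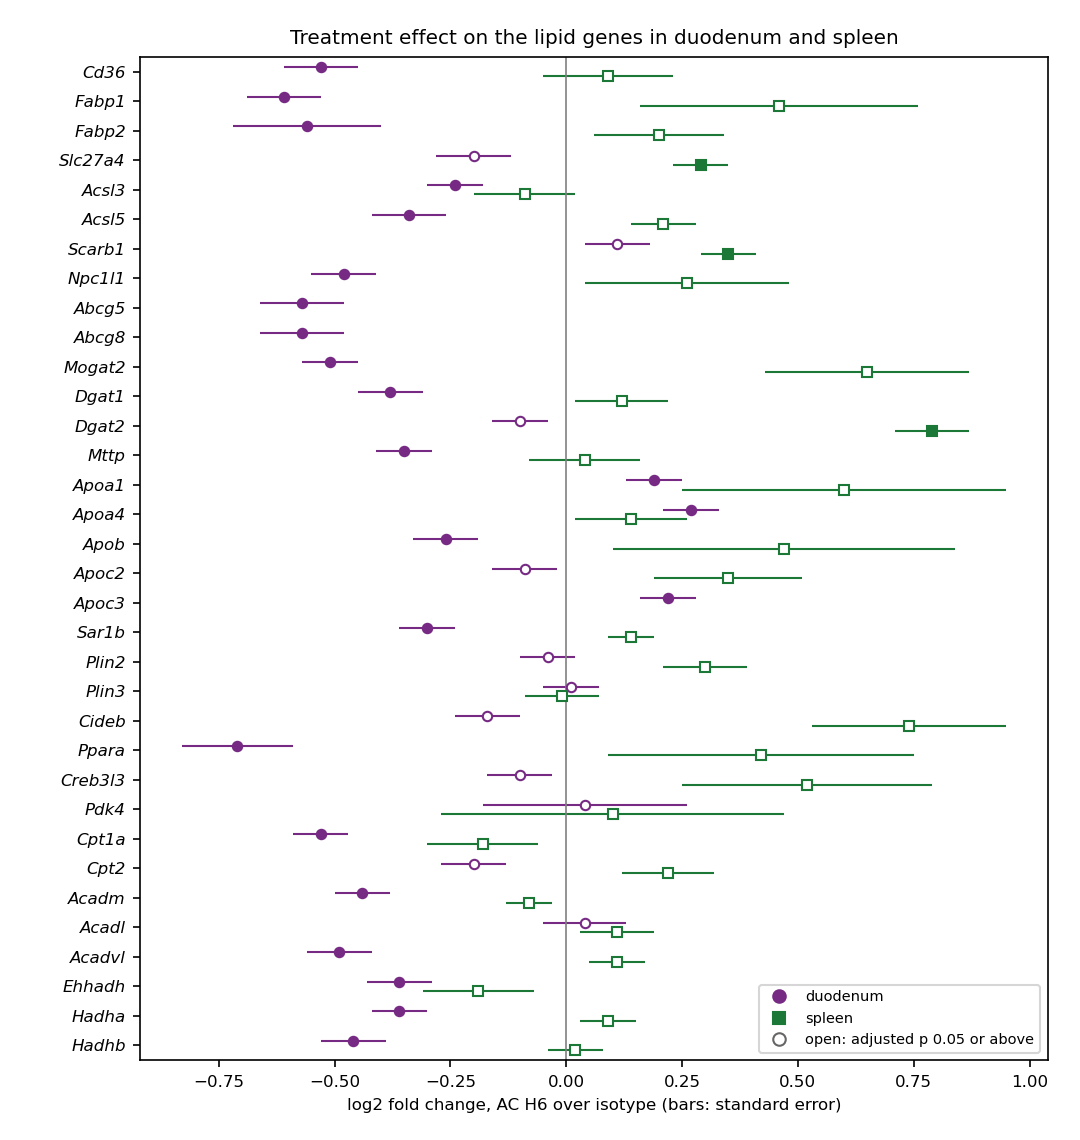
Log2 fold change of AC H6 over isotype with its standard error for each of the 34 genes, in duodenum (purple circles) and spleen (green squares); filled symbols passed the test at an adjusted p under 0.05. In the duodenum 20 filled circles lie below 0 and 3 above, and in spleen 3 filled squares lie above 0; Abcg5, Abcg8 and Apoc3 have no spleen value.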

How the data were processed

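The submitters' processing notes name STAR 2.3, Trimmomatic, bcl2fastq 2.19, edgeR and mm10. How reads were assigned to genes is not given in the sources used here. Each deposited table holds the read counts of 1 library by gene, in whole numbers, which keep reads with several matches per the file headers. Per the labels' protocols the kit was an Illumina TruSeq RNA kit fed with total RNA; its text mentions brain, although every tissue label says duodenum or spleen. Starting from these counts, genes were filtered with edgeR 4.0.16 under R 4.3.3 (filterByExpr) and scaled (TMM factors, CPM), and the quasi-likelihood test was run over all genes with Benjamini-Hochberg adjustment, called under 0.05. Treatment was tested within a tissue on 6 libraries, the interaction on all 12 and the tissue contrast on the 6 isotype libraries. A standard error is the log2 fold change divided by the square root of F. The tests were also run on simulated data with few changed genes. For the tissue contrast both simulated tissues had equal means apart from those genes, unlike the data. No result here rests on that run. Positions are GENCODE M21 (GRCm38, which is mm10), from 1. Promoter sequences are RefSeq's (GRCm38.p6), ended before the GENCODE start of the gene, except the stretch between Abcg5 and Abcg8. That stretch ends before the RefSeq start of Abcg8 and lies inside the GENCODE span of that gene. The genes and lists were chosen with earlier results of these data known. All 34 genes are named; of each other pathway list, the called genes of smallest adjusted p, up to 6, of which some are not reported here. Alternatives were other size factors, filters, DESeq2 1.42.0, limma-voom 3.58.1, a fit of all 12 libraries, marker covariates, a replicate block and each library left out. Replicate numbers come from the titles. Same-numbered duodenum and spleen isotype libraries deviated together from their group means (correlation 0.25, 0.40 and 0.14 over 11937 genes). The labels do not say what a number marks. The values given for that tissue contrast come from a fit without pairs. A fit with the replicate number as a block was run beside it. Close paralogs share reads with several matches and their values are uncertain.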

Additional observations from a re-analysis of the deposited data

Results flagged for a closer look

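The response of 20 genes to AC H6 differed between duodenum and spleen by a test of the difference itself, the interaction of tissue and treatment in edgeR's quasi-likelihood model of all 12 libraries at a Benjamini-Hochberg adjusted p under 0.05. The difference of the log2 fold changes, duodenum minus spleen, was below 0 for each: Dgat2 (-0.91), Acadvl (-0.62), Sar1b (-0.46), Mogat2 (-1.18), Hadha (-0.47), Hadhb (-0.50), Acadm (-0.38), Slc27a4 (-0.51), Cideb (-0.92), Acsl5 (-0.57), Dgat1 (-0.53), Fabp1 (-1.10), Npc1l1 (-0.75), Fabp2 (-0.78), Cd36 (-0.64), Cpt2 (-0.43), Ppara (-1.13), Apoc2 (-0.46), Mttp (-0.40), Scarb1 (-0.26). The groups held 3 libraries each, too few to test single libraries as outliers. Fabp1, Fabp2, Npc1l1, Mogat2, Cideb, Ppara and Apoc2 averaged under 5 CPM in both spleen groups, so their differences rest on few spleen counts. The 15 enterocyte markers summed to 93.3 to 102 CPM in spleen AC H6 and 90.5 to 100 CPM in spleen isotype libraries. Their median log2 difference between duodenum and spleen isotype libraries was 9.53. In that contrast Fabp1 was at 10.16, Fabp2 at 9.96 and Npc1l1 at 9.89, while Mogat2, Cideb, Ppara and Apoc2 ran from 7.71 to 8.47. Whether these low spleen levels come from spleen cells was not tested. Spleen AC H6 3, which carried liver transcripts, was the highest spleen library for Fabp1, Mogat2, Cideb and Ppara, but not for Fabp2, Npc1l1 or Apoc2. Without it, 14 of the 20 calls were kept, all 20 with the same sign. Ppara was then at -0.82 (adjusted p = 0.0754, edgeR) in place of -1.13. The part of liver RNA in these differences was not tested. With 1 of the 12 libraries left out, Scarb1 was called in 1 fit, Cd36 and Mttp in 3, Apoc2 in 4, Cpt2, Fabp2 and Ppara in 5, Npc1l1 in 10 and Fabp1 in 11, and the other 11 genes in all 12. Scarb1 was not called without a filter on low counts (adjusted p = 0.0642), with the stricter one (0.0875) or without the dominant genes (0.0869).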

How the results depend on the processing

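In the duodenum, the 20 falls kept their direction with other size factors, either filter, DESeq2, limma-voom, without the dominant genes, with the replicate block, in 1 fit of all 12 libraries, with the acinar score and with any 1 library left out; Apob lost its call in the fit of all 12. Covariates changed most. With the enterocyte score, 735 genes and 2 of the 34 genes were called (0 higher, 2 lower), and the log2 fold change was 0.02 for Fabp2, -0.02 for Apoa1, -0.03 for Plin3, 0.04 for Creb3l3 and -0.36 for Pdk4. Of the 23 calls, 9 were as far from 0 as without the score or farther, 12 were nearer and 2 changed sign. With the crypt score, added after the data were seen, 20 genes and 0 of the 34 were called (0 higher, 0 lower), with Fabp2 at 0.81, Slc27a4 at 0.23, Acsl3 at 0.10, Npc1l1 at 0.01, Dgat1 at 0.10, Apoa1 at -0.03, Apoc2 at 0.29, Plin2 at 0.19 and Cideb at 0.25; 8 of the 23 were as far from 0 or farther, 10 were nearer and 5 changed sign. The cause was not tested beyond the variance that score and treatment share. Without isotype 1 and AC H6 3 together, Plin2 was at 0.01, Plin3 at 0.00 and Pdk4 at -0.06. Plin3 was at 0.00 with other size factors and with DESeq2 and at -0.02 in the fit of all 12 libraries, where 0 of the 34 genes were called higher. With 1 library left out, 1 to 2 genes were called higher, Acadl ran from -0.01 to 0.12, Pdk4 from -0.17 to 0.34 and Plin3 from -0.01 to 0.02.

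In the spleen, 1356 genes were called with DESeq2 and 1390 in the fit of all 12 libraries, where 6 of the 34 were called (Cideb, Mogat2 and Plin2 added). With the erythroid score 200 genes and 1 of the 34 were called, with Cd36 at -0.20, Acadl at -0.01 and Hadhb at -0.02. With 1 library left out, 14 to 1132 genes and 0 to 2 of the 34 were called, Apob ran from -0.06 to 0.72, Cd36 from -0.01 to 0.22, Hadhb from -0.03 to 0.06, Mttp from -0.04 to 0.13, Pdk4 from -0.16 to 0.68 and Plin3 from -0.07 to 0.07. For the interaction, 13 of the 34 genes were called with limma-voom and 13 to 20 with 1 library left out, where Apoa1 ran from -0.72 to 0.09, Pdk4 from -0.63 to 0.24 and Plin3 from -0.09 to 0.11. Plin3 was at 0.00 without a filter, 0.05 with the stricter one, 0.01 with limma-voom and 0.04 without the dominant genes.

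With the replicate block, 25 of the 34 genes were called in the duodenum, 20 for the interaction (Apoc2 lost at an adjusted p of 0.0553 and Creb3l3 gained at 0.045), and 0 of the 34 and 1 gene in all in the spleen. Same-numbered AC H6 and isotype libraries did not all deviate together (correlation 0.50, 0.27 and -0.18 in duodenum, 0.44, -0.20 and -0.00 in spleen), so these numbers were not taken as pairs. Nor did AC H6 libraries between the tissues (0.17, 0.19 and -0.21). In the interaction fit the block joined same-numbered libraries of both treatments. Pairs of tissues within a treatment were not fitted there. In the tissue contrast of isotype libraries, where same-numbered libraries did deviate together, the block changed no call of the 34 genes. Over the 4 comparisons the tissue contrast lost only the Pdk4 call, with DESeq2 (adjusted p = 0.0512) or 1 library fewer.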

Other observations

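Pdk4 varied most among the 34 genes in both duodenum groups and in spleen isotype libraries, with coefficients of variation of 13.8% in duodenum AC H6, 35.3% in duodenum isotype and 58.3% in spleen isotype libraries. Isotype replicate 3 was the highest of its group in both tissues, at 59.7 CPM in duodenum and 46.5 CPM in spleen. In spleen AC H6, Pdk4 had 24.8, 27 and 39.1 CPM, and in spleen isotype 16.2, 21 and 46.5 CPM.

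Enteroendocrine markers are hormones and other genes of scattered cells of the same epithelium. They summed to 626 to 659 CPM in duodenum AC H6 and 475 to 504 CPM in duodenum isotype libraries. Of the 6 genes, 3 were called higher and none lower, and the sums did not overlap between the groups. Goblet cell markers summed to 7030 to 7730 CPM in AC H6 and 7950 to 8280 CPM in isotype libraries, again without overlap, but 2 of 6 were called lower, 3 of 6 lay above 0, and the median log2 fold change was -0.04. Paneth cell markers summed to 3340 to 4590 CPM in AC H6 and 3860 to 4850 CPM in isotype libraries, which overlapped, with 1 of 6 called higher and 2 lower.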
